A study of Mus musculus with 12 samples.

Results

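The genes described here are 7 repressors of the circadian clock: the period genes Per1 and Per3, the cryptochrome genes Cry1 and Cry2, Ciart (also called Chrono), and Bhlhe40 and Bhlhe41, which encode DEC1 and DEC2. They were taken by exact gene symbol from the array's annotation, and each of the 7 had 1 probe set naming it alone, out of 22180 genes measured that way. Per2 is outside the set because its probe set also names a second gene. Aortic vessel tissue was taken from 12 mice, all female and of the outbred CD-1 stock, and the RNA of each was hybridised to its own array. In the CM-695 group, 6 mice received the compound intraperitoneally at 80 mg/kg, 2 h and again 1 h before sacrifice. In the vehicle group, 6 mice received saline, recorded in the design text as a single administration, so the groups may also have differed in how often they were injected. CM-695 inhibits HDAC6, a mainly cytoplasmic deacetylase, and phosphodiesterase 9, which degrades cyclic GMP. All mice were perfused with buffered saline before the vessel was frozen. The hour of day at which each mouse was killed is not given in the sources used here, and clock transcripts vary with the hour, so a difference in collection time cannot be told apart from CM-695.

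The mammalian clock is a feedback loop of transcription. CLOCK, or its relative NPAS2, pairs with BMAL1 (the product of Arntl) and switches on genes that carry an E-box, among them those of the PER and CRY proteins, which enter the nucleus and silence the pair. CIART binds the CLOCK and BMAL1 complex as a further repressor, and DEC1 and DEC2 compete for E-boxes. Per1 is also an acute response gene, induced through cyclic AMP response elements and by glucocorticoids. Blood vessels run such a clock of their own, in smooth muscle and endothelium.

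Within this set, Per3, Ciart, Bhlhe41 and Per1 were lower in CM-695 aortas, at 27.5%, 33.3%, 33.7% and 50.2% of the vehicle level. Cry1, Cry2 and Bhlhe40 did not pass the test, with differences of 0.46, -0.46 and -0.38 on the log2 scale. Of the 7 genes, 4 were thus lower and 0 higher at an adjusted p under 0.05 (limma, Benjamini-Hochberg over all 41345 probe sets; 6 of the 7 had an unadjusted p under 0.05). Over all probe sets 0.131% were lower at that threshold, 0.0242% were higher, and 9.13% had an unadjusted p under 0.05. Differences are CM-695 minus vehicle on the log2 scale with limma's standard error (SE). In bulk tissue, fewer cells of a type and less RNA per cell cannot be told apart.

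The proximal promoters are shown because the 4 genes that fell and the Cry genes, which did not pass, are all textbook members of the E-box loop, and the letters show how far they share its motifs. RefSeq promoters (build GRCm38.p6) were listed for 6 of the 7 genes, with none for Bhlhe40, and the 250 bases upstream of each start were searched on both strands. The stretches below hold every match upstream of 1 start per gene (for Per1 the upstream start) plus up to 15 bases on each side, written 5′ to 3′ on the gene's strand. Capitals mark an E-box (CACGTG), an E-prime box (CACGTT, read AACGTG on the other strand), a D-box (TTATGTAA), which is bound by DBP, TEF and HLF, or the core of the cyclic AMP response element (TGACG, read CGTCA on the other strand). No matches overlapped.
Per1, chr11:69098699-69098803, plus strand: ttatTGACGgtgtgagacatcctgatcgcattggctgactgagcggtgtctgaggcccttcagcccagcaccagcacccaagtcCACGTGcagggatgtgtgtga
Per3, chr4:151044801-151044885, minus strand: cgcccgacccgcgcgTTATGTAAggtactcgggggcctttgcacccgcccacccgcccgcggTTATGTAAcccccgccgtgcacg
Ciart, chr3:95882252-95882359, minus strand: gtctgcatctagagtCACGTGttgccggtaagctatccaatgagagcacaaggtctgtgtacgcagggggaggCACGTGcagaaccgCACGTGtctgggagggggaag
Bhlhe41, chr6:145865553-145865588, minus strand: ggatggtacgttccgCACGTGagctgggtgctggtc
Cry1, chr10:85185055-85185148, minus strand: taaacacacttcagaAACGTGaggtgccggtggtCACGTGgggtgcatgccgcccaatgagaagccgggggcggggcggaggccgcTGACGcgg
Cry2, chr2:92434215-92434293, minus strand: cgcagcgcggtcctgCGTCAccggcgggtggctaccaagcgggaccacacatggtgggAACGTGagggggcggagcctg

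Ciart held 3 E-boxes in this window, and Per1, Bhlhe41 and Cry1 held 1 each. The E-box was thus found in 4 of 6 genes, which have 7 windows, against 6.02% of all 32851 promoter windows in the table. These genes were already known as members of the E-box loop, so this comparison is a description and not a result of these data. An E-prime box lay in Cry1 and Cry2 (3.85% of all windows). Per3 had no E-box within these 250 bases and held 2 D-boxes, a motif found in 0.819% of all windows. The core of the cyclic AMP response element lay in Per1, Cry1 and Cry2 (17.8% of all windows), and Per1's downstream start, a second window in the table, had 1 as well. The full element TGACGTCA (1.55% of all windows), the perfect palindrome of the glucocorticoid response element (0.00913%), the heat shock element of 3 inverted units (0.466%) and the ROR and REV-ERB core TAGGTCA (2.23%) had no match in the members' windows. E-box matches were present both in genes that fell and in Cry1, whose difference was above 0. The map of motif matches places them relative to each start.

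**Figure D1:**
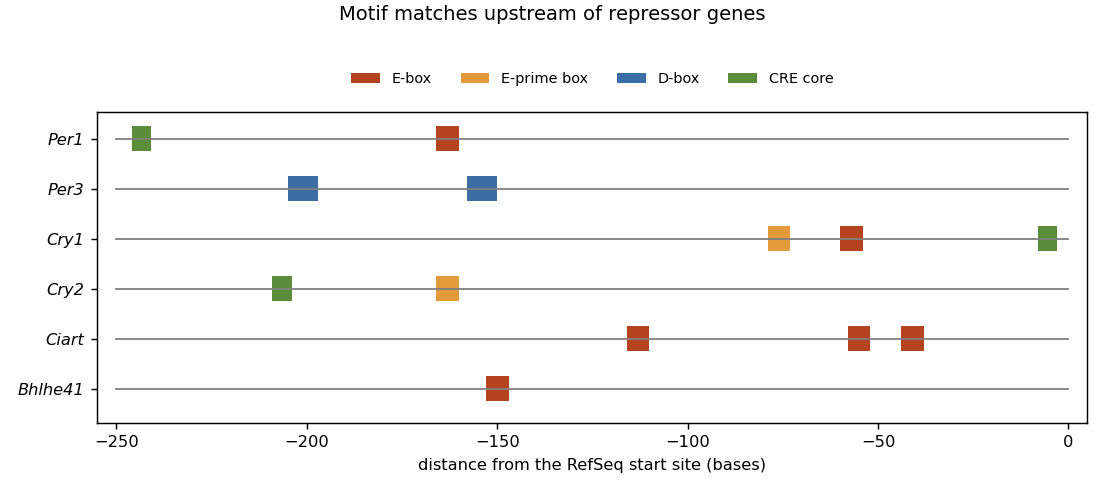
Motif matches in the 250 bases upstream of the RefSeq start of 6 clock repressor genes (x axis: distance from the start in bases; each box is 1 match, coloured by motif, CRE core being the core of the cyclic AMP response element; for Per1 the upstream start is drawn). Ciart carries 3 E-boxes, Per3 carries 2 D-boxes and no E-box, and Cry2 carries an E-prime box and no E-box.

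The period genes encode the PER proteins, which hold the repressor complex together. Per3 measured 5.73, 5.79, 5.31, 5.93, 5.96 and 5.50 in CM-695 mice 1 to 6, against 7.71, 7.08, 7.63, 7.64, 7.76 and 7.58 in vehicle mice 1 to 6 (RMA log2 values). The highest CM-695 mouse lay 1.13 below the lowest vehicle mouse. Per3 averaged 5.70 ± 0.25 in CM-695 mice and 7.57 ± 0.25 in vehicle mice (SD, n = 6 each). The difference was -1.86 with SE 0.14 and a 95% confidence interval of -2.17 to -1.56 (limma adjusted p = 6.27e-05), and only 2 of the 41345 probe sets had a smaller p, those of Arntl and Dbp.

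Per1 measured 7.62, 8.34, 7.59, 7.80, 7.95 and 7.94 in CM-695 mice 1 to 6, against 8.87, 8.97, 9.01, 8.83, 8.89 and 8.63 in vehicle mice 1 to 6. The groups did not overlap, and CM-695 mouse 2 came closest to the vehicle range, 0.28 below it. The means were 7.87 ± 0.28 in CM-695 mice and 8.87 ± 0.13 in vehicle mice (SD, n = 6 each). They differed by -0.99 (SE 0.13), with a 95% confidence interval of -1.27 to -0.72 (limma adjusted p = 0.00604). Of 12 heart muscle markers 11 had a difference below 0, though 0 passed limma's threshold (8 had an unadjusted p under 0.05). With their mean per mouse as a covariate Per1 differed by -1.01 (SE 0.18, adjusted p = 0.113), so that its size held and its call did not.

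CIART represses CLOCK and BMAL1 by direct binding. Ciart measured 4.91, 4.92, 5.33, 5.12, 5.04 and 5.19 in CM-695 mice 1 to 6, against 6.65, 6.17, 6.64, 6.64, 7.25 and 6.68 in vehicle mice 1 to 6. All CM-695 mice lay at least 0.84 below the lowest vehicle mouse, and vehicle mouse 5 stood highest. Ciart averaged 5.09 ± 0.16 in CM-695 mice and 6.67 ± 0.34 in vehicle mice (SD, n = 6 each). The difference was -1.59 with SE 0.15 and a 95% confidence interval of -1.91 to -1.26 (limma adjusted p = 0.000490).

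Bhlhe41 encodes DEC2, an E-box binding repressor. It measured 4.02, 4.43, 4.17, 4.47, 4.48 and 4.46 in CM-695 mice 1 to 6, against 6.04, 5.41, 6.30, 5.71, 6.25 and 5.74 in vehicle mice 1 to 6. The groups were 0.93 apart at their nearest values. The means were 4.34 ± 0.20 in CM-695 mice and 5.91 ± 0.35 in vehicle mice (SD, n = 6 each). They differed by -1.57 (SE 0.16), with a 95% confidence interval of -1.91 to -1.24 (limma adjusted p = 0.000782). In 6 of 6 CM-695 mice the value lay below the median of its own array, against 0 of 6 vehicle mice. The files carry no detection calls, so values that low do not separate weak expression from none.

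Bhlhe40, which encodes the close relative DEC1, overlapped fully between the groups. It measured 8.57, 8.44, 9.05, 8.13, 8.08 and 8.29 in CM-695 mice 1 to 6, against 9.00, 8.06, 8.69, 8.68, 9.21 and 9.18 in vehicle mice 1 to 6. CM-695 mouse 3 and vehicle mouse 2 stood apart from most of their own groups, the first high and the second lowest of all 12 mice. The means were 8.43 ± 0.36 in CM-695 mice and 8.80 ± 0.43 in vehicle mice (SD, n = 6 each), and the difference of -0.38 (SE 0.21) had a 95% confidence interval of -0.83 to 0.07 (limma adjusted p = 0.616; exact two-sided permutation test of this gene alone, p = 0.126).

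The cryptochromes bind PER and CLOCK:BMAL1 and carry the inhibiting surface of the complex. Cry1 measured 6.50, 5.94, 6.44, 6.03, 5.93 and 5.98 in CM-695 mice 1 to 6, against 5.75, 5.41, 5.63, 5.66, 6.04 and 5.58 in vehicle mice 1 to 6. CM-695 mice 1 and 3 exceeded every vehicle mouse, and the other 4 overlapped vehicle mouse 5 only. Cry1 averaged 6.13 ± 0.26 in CM-695 mice and 5.68 ± 0.21 in vehicle mice (SD, n = 6 each). The difference was 0.46 with SE 0.14 and a 95% confidence interval of 0.16 to 0.75 (limma adjusted p = 0.294; exact permutation test of this gene alone, p = 0.0108).

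Cry2 measured 5.52, 6.16, 6.14, 5.91, 6.48 and 5.85 in CM-695 mice 1 to 6, against 6.14, 6.26, 6.75, 6.35, 6.80 and 6.53 in vehicle mice 1 to 6. Of the CM-695 mice, 4 lay below the lowest vehicle mouse. Cry2 averaged 6.01 ± 0.33 in CM-695 mice and 6.47 ± 0.27 in vehicle mice (SD, n = 6 each). The difference was -0.46 with SE 0.16 and a 95% confidence interval of -0.82 to -0.11 (limma adjusted p = 0.391; exact permutation test of this gene alone, p = 0.0260). With the heart muscle marker mean as a covariate the difference was -0.29 (SE 0.22).

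**Figure D2:**
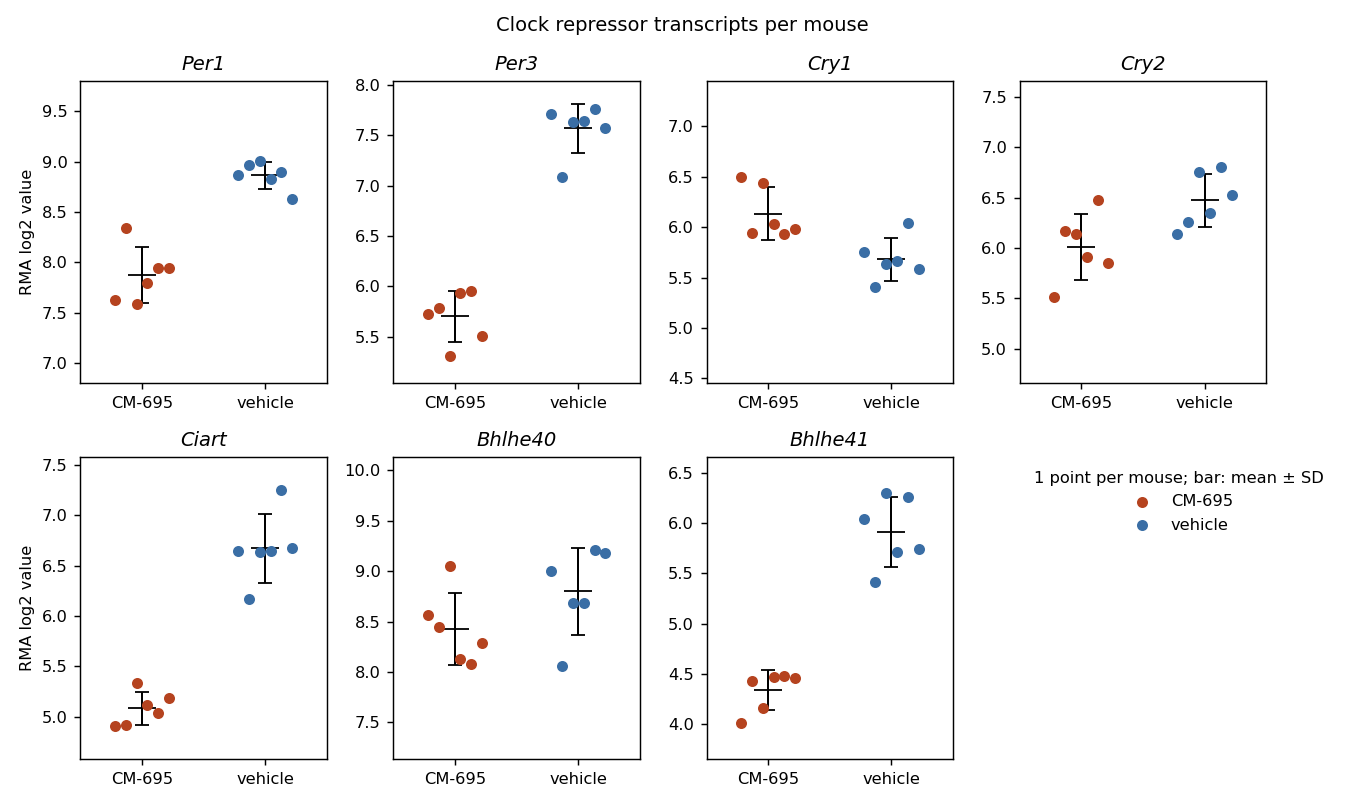
RMA log2 value of each of the 7 clock repressor genes in every mouse (y axis, 3 log2 units in each panel; CM-695 left, vehicle right; points are mice, bars the mean ± SD, n = 6 each). Per1, Per3, Ciart and Bhlhe41 separate the groups completely, while Cry1, Cry2 and Bhlhe40 overlap.

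The groups did not overlap for 4 of the 7 genes, all 4 lower in CM-695 mice. Among all 22180 genes, 0.636% were separated in that direction and 0.442% in the other. The calls for Per1, Per3, Ciart and Bhlhe41 were each kept without any 1 of the 12 mice. Under a test against a 1.5-fold change, Per3 (adjusted p = 0.00294) and Ciart (adjusted p = 0.0383) still passed, while Bhlhe41 (adjusted p = 0.0607) and Per1 did not.

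The measured values of close relatives within the set shifted by different amounts. Because both genes of a pair were read in the same mouse, the log2 value of one was subtracted from that of the other per mouse, and this difference was compared between groups with an exact two-sided permutation test over all 924 assignments of 6 of the 12 mice. Only the shift between groups has a meaning here, since levels of different probe sets are not comparable. Whether the probe sets of a pair respond alike to the same change in RNA was not tested. The 3 pairs were chosen as relatives with earlier results of these data known.

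The DEC genes separated completely on this measure. Bhlhe40 minus Bhlhe41 was 4.55, 4.01, 4.89, 3.65, 3.60 and 3.83 in CM-695 mice 1 to 6, against 2.96, 2.64, 2.39, 2.97, 2.96 and 3.44 in vehicle mice 1 to 6. All 6 CM-695 mice lay above the whole vehicle range, a shift of 1.20 (SE 0.26, 95% confidence interval 0.62 to 1.77; exact permutation p = 0.0022, the smallest this test can give).

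Cry1 minus Cry2 was 0.98, -0.23, 0.30, 0.12, -0.55 and 0.13 in CM-695 mice 1 to 6, against -0.39, -0.86, -1.12, -0.69, -0.76 and -0.95 in vehicle mice 1 to 6. CM-695 mouse 5 fell within the vehicle range and the other 5 lay above it. The shift was 0.92 (SE 0.23, 95% confidence interval 0.40 to 1.44, exact permutation p = 0.0043). Cry1 thus shifted upward relative to Cry2, although neither passed alone across all probe sets.

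Per1 minus Per3 was 1.90, 2.56, 2.28, 1.87, 1.99 and 2.44 in CM-695 mice 1 to 6, against 1.16, 1.88, 1.38, 1.20, 1.13 and 1.05 in vehicle mice 1 to 6. CM-695 mouse 4 lay just below vehicle mouse 2, and the other 5 CM-695 mice lay above the vehicle range. The shift was 0.87 (SE 0.17, 95% confidence interval 0.49 to 1.26, exact permutation p = 0.0043). The measured fall was thus larger for the probe set of Per3 than for that of Per1. Adjusted over the 3 pairs, each had p = 0.0043 in the exact permutation test. The pairs were rerun only with each mouse left out in turn (adjusted exact permutation p up to 0.0087). They were not rerun with the heart muscle covariate or under other processing.

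**Figure D3:**
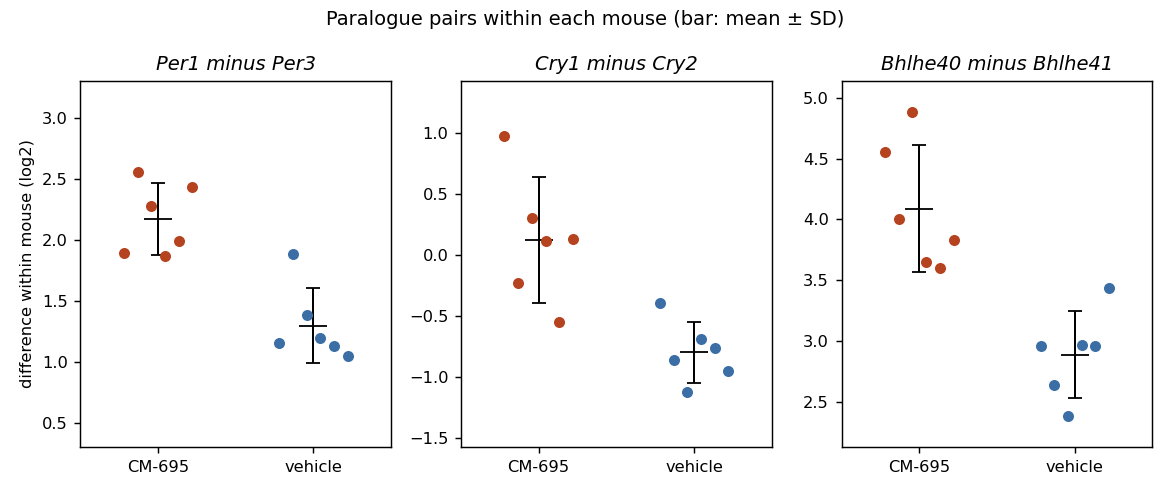
Difference of the log2 values of 2 related repressor genes within each mouse (y axis, log2; CM-695 left, vehicle right; points are mice, bars the mean ± SD, n = 6 each). All 3 differences are higher in CM-695 mice, with complete separation for Bhlhe40 minus Bhlhe41 and 1 CM-695 mouse inside the vehicle range in each of the others.

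Within the vehicle group the same mice recurred at the ends of the range. Vehicle mouse 2 was the lowest of the 6 vehicle mice for 5 of the 7 genes (Per3, Cry1, Ciart, Bhlhe40 and Bhlhe41), and vehicle mouse 5 the highest for 5 of the 7 (Per3, Cry1, Cry2, Ciart and Bhlhe40). Among CM-695 mice, mouse 1 was lowest for Cry2, Ciart and Bhlhe41, mouse 3 for Per1 and Per3, and mouse 5 for Cry1 and Bhlhe40. Mouse 5 was highest for Per3, Cry2 and Bhlhe41, mouse 3 for Ciart and Bhlhe40, mouse 1 for Cry1 and mouse 2 for Per1. CM-695 mice 4 and 6 stood at neither end for any of the 7 genes. These ranks are descriptions and carry no test.

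The genes with the most similar profile over the 12 mice were found for each repressor that fell, as those with the smallest root mean square difference in log2 value after each gene's mean was subtracted. Ciart and Bhlhe41 were each other's nearest gene, at 0.23 log2. For Per3 the nearest were Bhlhe41 (0.26), the transcription factor gene Tef (0.27) and Ciart (0.31). Tef was also near Bhlhe41 (0.24), and Nr1d2, which encodes REV-ERB beta, near Ciart (0.28). Tef itself differed by -1.59 (SE 0.12) and Nr1d2 by -1.42 (SE 0.17).

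Per1 had other neighbours, none of them in the clock lists. Its nearest genes were the metallothionein gene Mt1 (0.18 log2), Pde4dip, which encodes the scaffold protein myomegalin (0.23), and Adamtsl2, which encodes a secreted matrix protein (0.23). Mt1 differed by -0.85 (SE 0.087, limma adjusted p = 0.000986). Pde4dip at -0.68 (SE 0.17, adjusted p = 0.196) and Adamtsl2 at -0.74 (SE 0.15, adjusted p = 0.0983) did not pass. The measure compares size as well as shape, so genes that differ by a similar amount are near each other.

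In the activating arm of the loop, Arntl and Npas2 moved the other way. Of the 4 activator genes 2 were higher and 0 lower, Arntl by 2.69 (SE 0.15) and Npas2 by 2.24 (SE 0.24), while Clock differed by 0.50 (SE 0.097, adjusted p = 0.0739) with 6 of 6 CM-695 mice above all vehicle mice. Arntl lay below the median of its own array in 0 of 6 CM-695 mice and 4 of 6 vehicle mice, so the size of its difference rests on dim vehicle values. The list median was 1.37, against 0.02 over all genes. Of 4 measured REV-ERB and ROR receptor genes 1 was lower, Nr1d2, and 0 higher. Its relative Nr1d1, which encodes REV-ERB alpha, differed by -0.16 (SE 0.15) and Rorb by -0.05 (SE 0.098), and the list median was -0.11. Of Dbp, Tef, Hlf and Nfil3, 2 were lower, Dbp by 2.68 on the log2 scale and Tef, and 0 higher, with Nfil3, whose product competes for the D-box, at 0.54 (SE 0.12, adjusted p = 0.137) and a list median of -1.10. With the heart muscle marker mean as a covariate 1 activator and 0 receptors passed limma's test, and with the 1.5-fold threshold 0 receptors passed (1 receptor had an unadjusted p under 0.05 in each).

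Genes whose products act on the PER and CRY proteins were examined next. Of 19 measured kinases, phosphatases, ubiquitin ligase parts and deubiquitinases, 1 was lower and 0 higher. That gene was Usp2, a deubiquitinase under clock control, at -1.69 (SE 0.20, adjusted p = 0.00282). Of the 19, 0 passed limma's test with the heart muscle covariate or with the 1.5-fold threshold (1 had an unadjusted p under 0.05 in each). In the main fit 1 of the 19 had an unadjusted p under 0.05, against 9.13% of all probe sets. The casein kinase gene Csnk1e, whose product marks PER for decay, differed by -0.15 (SE 0.094, adjusted p = 0.656), and Prkaa2, an AMP-activated kinase subunit that phosphorylates CRY, by -0.20 (SE 0.14). The list median was -0.01. Of 14 measured partners of the PER and CRY complex, 1 was lower, Ciart itself, and 0 higher (median -0.08), with the helicase gene Dhx9 at -0.20 (SE 0.074, adjusted p = 0.442) and Cipc, a CLOCK-interacting repressor, at -0.17 (SE 0.10).

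**Figure D4:**
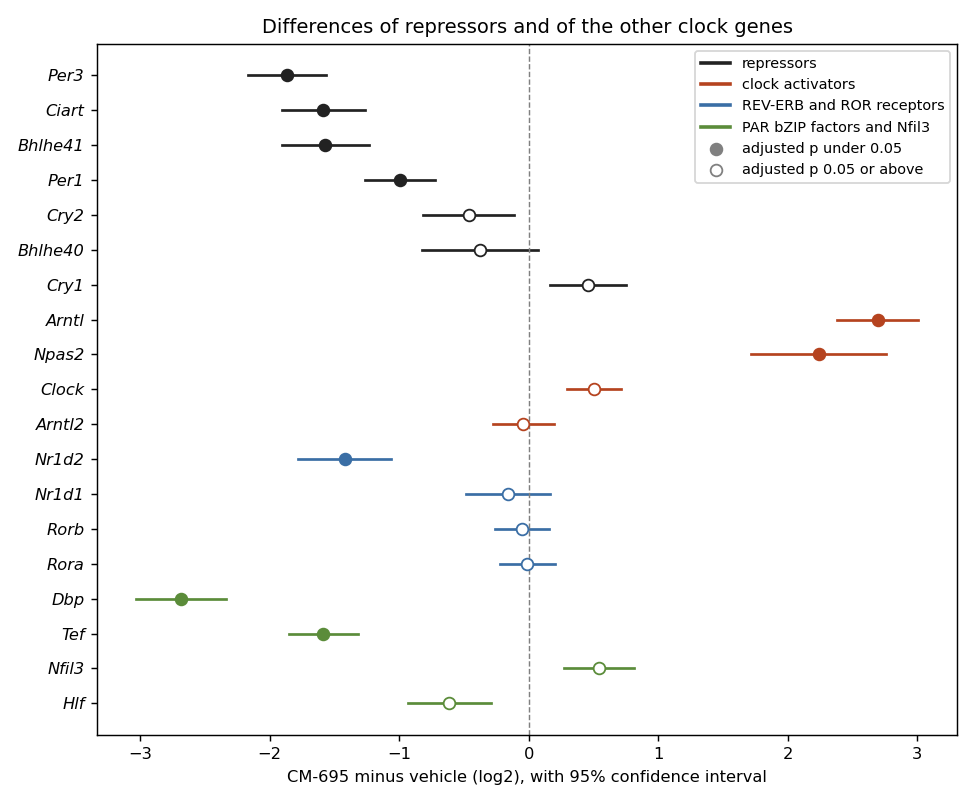
Difference between CM-695 and vehicle mice (x axis, log2, with the 95% confidence interval of the limma fit) for the 7 repressors and for the clock activators, REV-ERB and ROR receptors, and PAR bZIP factors with Nfil3. Filled points passed an adjusted p of 0.05 over all probe sets: Per3, Ciart, Bhlhe41 and Per1 lie below 0, as do Dbp, Tef and Nr1d2, while Arntl and Npas2 lie above 0. Per1, Nr1d2 and 1 of these 2 activators did not pass with the heart muscle marker mean as a covariate.

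Genes listed as E-box outputs of the clock activators had differences mostly below 0. Of 12 measured genes in the E-box output list 7 were lower and 0 higher, with a median of -0.76. Over all probe sets 0.131% were lower and 0.0242% higher at that threshold. The list was chosen with earlier results of these data known, so its count and median are not independent of them. Dbp and Tef were among the 7 lower genes, and Coq10b, a coenzyme Q binding protein of mitochondria, differed by -0.91 (SE 0.095, adjusted p = 0.00111). Differences were below 0 for 10 of the 12 and above 0 for 2, and Nr1d1, given above, did not pass. Promoter matches were listed for the repressors only, so the E-boxes of this list were not checked. This list shares Dbp, Tef, Hlf, Nr1d1, Nr1d2 and Usp2 with those above, so the counts are not separate. With the heart muscle marker mean as a covariate 3 of the 12 passed, and with the 1.5-fold threshold 2.

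Signals that can induce Per1 apart from the clock were examined through other glucocorticoid targets and through genes of the CREB pathway. The latter mostly encode parts of the pathway, so their RNA levels do not measure its activity. Of 20 measured glucocorticoid targets 6 were lower and 0 higher (median -0.58), among them Mt1, the NF-kB inhibitor gene Nfkbia at -0.91 (SE 0.11) and the mTORC1 inhibitor gene Ddit4 at -1.44 (SE 0.19, adjusted p = 0.00767). This count was 3 without CM-695 mouse 3 or 5 or without vehicle mouse 2, 3 or 6, 1 with the heart muscle marker mean as a covariate, and 0 in limma's test against a 1.5-fold change (8 at an unadjusted p under 0.05). Differences were below 0 for 17 of the 20 and above 0 for 3. In the main fit 14 of the 20 had an unadjusted p under 0.05, against 9.13% of all probe sets. Over all probe sets 0.131% were lower and 0.0242% higher at the adjusted threshold. Chosen after their values were seen, Angptl4 differed by 1.09 (SE 0.26, limma adjusted p = 0.144) and Fkbp5 by -1.47 (SE 0.27, adjusted p = 0.0550). Neither passed. Of 11 measured genes of the CREB, CRTC and SIK axis, 0 passed limma's test in either direction (median 0.09). An unadjusted p under 0.05 was found for 1 of them, against 9.13% of all probe sets. That gene was the kinase gene Sik1, itself a CREB target, at -0.96 (SE 0.25, adjusted p = 0.212), followed by Sik2 at 0.33 (SE 0.16) and Crtc1, which encodes a CREB coactivator, at 0.26 (SE 0.15).

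Bhlhe40 is also induced by hypoxia. Of 14 measured hypoxia targets 1 was lower, Ddit4, which the glucocorticoid list also holds, and 0 higher (median -0.08). Of the 14, 0 passed limma's test with the heart muscle covariate or with the 1.5-fold threshold (2 and 1 at an unadjusted p under 0.05). In the main fit 2 of the 14 had an unadjusted p under 0.05, against 9.13% of all probe sets. The vasodilator peptide gene Adm differed by -0.45 (SE 0.14, adjusted p = 0.333) and the growth factor gene Vegfa by -0.39 (SE 0.20, adjusted p = 0.599).

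The arrays were similar to each other, with medians of 4.69 to 4.74 and pairwise correlations of 0.957 to 0.977 over all probe sets. The labelled tissue showed its defining markers: in vehicle mice 11 of 11 smooth muscle and 12 of 12 endothelial markers exceeded the array median. So did 7 of 7 measured brown adipocyte, 8 of 8 adipocyte, 10 of 10 fibroblast and 10 of 12 heart muscle markers. The heart muscle markers had a median difference of -1.63, with 11 of 12 below 0 and 0 past limma's threshold (8 had an unadjusted p under 0.05). Their mean log2 value per mouse was 6.91 ± 0.83 in CM-695 mice and 8.09 ± 0.59 in vehicle mice (SD, n = 6 each), and the groups overlapped, with 3 of 6 CM-695 mice below all vehicle mice. Fibroblast markers were below 0 in 10 of 10 (median -0.42) and smooth muscle markers in 10 of 11 (median -0.27), with 0 past limma's threshold in either list (5 and 0 at an unadjusted p under 0.05). In each of these lists 3 of 6 CM-695 mice had a mean below all vehicle mice. The fibroblast mean ran from 8.35 to 8.87 in CM-695 mice and from 8.55 to 9.38 in vehicle mice, and the smooth muscle mean from 8.32 to 10.3 in CM-695 mice and from 8.79 to 9.72 in vehicle mice. With the heart muscle mean as a covariate, Per3 differed by -2.04 (SE 0.18), Ciart by -1.45 (SE 0.20) and Bhlhe41 by -1.64 (SE 0.22), each still past the threshold. Some marker lists mostly lay above 0. Platelet markers were below 0 in 1 of 7 (median 0.28) and leukocyte markers in 2 of 9 (median 0.25). Liver markers were below 0 in 0 of 9 (median 0.34) and adipocyte markers in 2 of 8 (median 0.11). In each of these lists 0 passed limma's threshold (3, 1, 1 and 2 at an unadjusted p under 0.05). The part of these markers, and of the fibroblast and smooth muscle markers, in these results was not tested. In CM-695 mouse 5 liver markers were high, and the 4 calls held without that mouse.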

How the data were processed

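RNA of 12 aortas was measured on mouse gene expression arrays, 1 per mouse. The deposited table holds log2 values for 41345 probe sets, which the authors obtained by RMA, per the submitters' processing notes. RMA combines background correction, normalization between arrays and summary of the probes of a set. Its software and version are not given. The platform annotation named 1 gene for 23521 probe sets and several for 1814. A gene with several probe sets was read from the one with the highest mean.

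CM-695 was compared with vehicle by limma 3.58.1 in R 4.3.3 (lmFit, eBayes, two-sided, Benjamini-Hochberg over all probe sets, threshold 0.05). The procedure was also run on simulated data with independent noise for each probe set. Its recovery of small changes is not given here. Pairs of relatives had an exact permutation test. Precision is limited by the 6 mice of each group. Named genes were all members, the 3 nearest profiles of each member past the threshold, and of each of 9 lists up to 3 genes with the smallest p. Angptl4 and Fkbp5 were named after their values were seen. The members and lists were chosen with earlier results of these data known, so their counts are not independent of those results. Alternatives were a replicate block, a filter on dim probe sets, repeated quantile normalization, median centring, array weights, eBayes with trend and robust, a heart muscle covariate, a 1.5-fold threshold and leaving out each mouse. For the pairs only the last of these was run. Promoter sequences are RefSeq's.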

Additional observations from a re-analysis of the deposited data

Results flagged for a closer look

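Of 42 sets of 6 values checked (members, pairs and marker means in each group), 2 held a mouse far from the rest of its group, and chance gives about 1 in 20. For Per3, vehicle mouse 2 stood lowest at 7.08, the next vehicle mouse being at 7.58; without it the difference was -1.96 (SE 0.12), with limma adjusted p = 1.94e-05. For the mean of the liver markers, CM-695 mouse 5 stood highest at 6.73, the next CM-695 mouse being at 5.20. Without that mouse Per1 differed by -1.01, Per3 by -1.92, Ciart by -1.58 and Bhlhe41 by -1.60, with limma adjusted p of 0.000176 to 0.0191.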

How the results depend on the processing

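The differences of the 7 repressors kept their direction in every alternative run, and the calls of Per3, Ciart and Bhlhe41 held in all that adjust or leave out data (adjusted p up to 0.00596, 0.0320 and 0.0408). Per1 did not pass with the replicate block, at -0.99 (adjusted p = 0.0800), or with the heart muscle covariate, at -1.01 (adjusted p = 0.113). With a 1.5-fold threshold 2 of the 7 passed. The probe sets past the threshold, 64 as reported, numbered 15 with the replicate block, 116 with dim probe sets left out, 13 with the heart muscle covariate, 7 with the 1.5-fold threshold, and 22 to 98 with 1 mouse left out. Deviations of same-numbered mice of the 2 groups had correlations of -0.10 to 0.10 over all probe sets, above 0.1 in 1 of 6 pairs. Of the 6 CM-695 mice, 1 correlated best with its own number. No pairing is stated, and these correlations cannot exclude a shared collection time or processing run.

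With the replicate block, limma's calls numbered 1 for glucocorticoid targets and 0 for both the PER and CRY stability list and the hypoxia list (13, 1 and 2 at an unadjusted p under 0.05). With the heart muscle covariate they were 1 for activators, 1 for glucocorticoid targets, 3 for E-box outputs, and 0 for the receptor, stability and hypoxia lists (1, 1 and 2 unadjusted). With the 1.5-fold threshold they were 2 for E-box outputs and 0 for the receptor, stability, glucocorticoid and hypoxia lists (1, 1, 8 and 1 unadjusted). With 1 mouse left out, glucocorticoid targets numbered 3 to 6. The cause of these changes was not tested. Each member had 1 probe set, so the alternatives with other probe sets of a gene were not run. Dim values limit Bhlhe41 in CM-695 mice and Arntl in vehicle mice.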

Other observations

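The vehicle mice that stood at the ends of the repressor ranking also stood at the ends of other clock genes. Among 12 activator, receptor and output factor genes, vehicle mouse 2 was the highest vehicle mouse for 5, namely Arntl (the other vehicle mice lay at 4.25 to 4.84), Npas2 at 5.73, Clock at 9.14, Arntl2 at 5.54 and Nfil3 at 6.50. Vehicle mouse 5, highest for 5 of the 7 repressors, was the highest vehicle mouse for Dbp at 9.55, Nr1d2 at 8.20, Nr1d1 at 8.82 and Hlf at 7.05, and the lowest for Nfil3 at 5.85. Among CM-695 mice, mouse 2 had the highest Per1 (8.34), Arntl (7.72) and Npas2 (8.45). Marker means also set these mice apart. CM-695 mouse 2 had the highest smooth muscle mean of its group, 10.3 against 9.34 in the next mouse, and the lowest adipocyte and brown adipocyte means, 9.24 and 9.22 against 9.85 and 9.75. Vehicle mice 2 and 5 had the highest heart muscle means, 8.65 and 8.68. The part of these markers in the ranks was not tested. The ranks were noticed after the values were seen and were not tested.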
